A study of Mus musculus with 21 samples.

Results

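The genes described here are 40 that fold new proteins in the endoplasmic reticulum of the cell or move them out of it. They were chosen by a list of symbols, and all 40 were found among the 23204 gene symbols of the count files. The low-count filter kept 39 of them among 11669 tested genes. Manf, which encodes a small secreted protein of the reticulum, had 28 counts in all 21 libraries together, was at 0 in 7 of them, reached at most 1.49 CPM (the count relative to the library total, as scaled by edgeR's TMM method) and was not tested.

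Transcripts were counted by 3′SAGE-seq, which reads a tag near the 3′ end of each polyadenylated RNA, in lung fibroblasts of female C57BL/6 mice carrying a Col1a2-GFP transgene. Each library came from 10000 live cells sorted for the green reporter and for absence of CD45, CD31, EpCAM, CD146 and Ter119, so cells in which the Col1a2 reporter was silent were not sampled. The 7 groups of 3 libraries were SiO2 day 7, day 14 and day 63 (crystalline silica at 400 mg/kg, which the series calls progressive fibrosis), BLM day 7, day 14 and day 63 (bleomycin sulfate at 2 mg/kg, which it calls reversible fibrosis), and untreated. Both agents were given once in 50 μL of saline by oropharyngeal aspiration, all groups shared strain, sex and transgene, and no saline-only group was analysed here. Total counts ran from 2080636 to 4477283 per library. The labels do not say that replicate numbers mark separate mice, so p-values measure the spread between these libraries.

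Secreted proteins enter the endoplasmic reticulum through the Sec61 channel, are folded there by chaperones, disulfide isomerases and prolyl isomerases, and leave in vesicles coated with COPII, while COPI vesicles bring escaped residents back. When unfolded proteins build up, the sensors IRE1, PERK and ATF6 start the unfolded protein response, which raises many of these genes through the factors XBP1, ATF4 and ATF6. Fibroblasts load this pathway with procollagen, whose chains need prolyl isomerases and a dedicated chaperone before they can be exported.

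In every treated group more of these genes rose than fell. At SiO2 day 7, 27 of the 39 tested genes rose and 2 fell relative to untreated fibroblasts, where 44.1% of all tested genes were called, 23.4% higher and 20.6% lower. At SiO2 day 14, 18 rose and 1 fell, where 24.1% of all tested genes were called, 13.6% higher and 10.5% lower. The counts were again 18 and 1 at SiO2 day 63, where 27.8% of all tested genes were called, 15.3% higher and 12.5% lower. In BLM fibroblasts, 20 genes rose and 1 fell at day 7, where 31.6% of all tested genes were called, 16.7% higher and 14.9% lower. At BLM day 14, 23 rose and 3 fell, where 39.3% of all tested genes were called, 20.7% higher and 18.5% lower. At BLM day 63, 8 rose and 1 fell, where 11.5% of all tested genes were called, 6.02% higher and 5.48% lower. A gene was called when its adjusted p in edgeR's quasi-likelihood test, corrected by Benjamini and Hochberg's method over all tested genes, was under 0.05. The count at BLM day 63 was not stable, since 5 calls in place of 9 were made without BLM day 63 replicate 3.

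As shares, 69.2% of the 39 genes rose at SiO2 day 7 and 46.2% at each of SiO2 day 14 and day 63, and 51.3%, 59.0% and 20.5% rose at day 7, 14 and 63 of BLM. The median log2 fold change of the 39 genes was 0.61, 0.40 and 0.37 at day 7, 14 and 63 of SiO2 and 0.41, 0.44 and 0.12 at the same days of BLM. Medians over all tested genes lay between 0.01 and 0.04. By role, the medians at SiO2 day 7 were 1.14 for the entry channel, 0.98 for coats and receptors, 0.76 for prolyl isomerases, 0.62 for lectin chaperones and disulfide isomerases, 0.46 for Hsp70 and Hsp90 chaperones, 0.10 for degradation and -0.12 for transcription factors. At SiO2 day 63 they lay closer together, at 0.59, 0.44, 0.32, 0.57, 0.54, 0.15 and -0.30 in the same order. The 6 comparisons share the untreated libraries, so their counts are not independent of each other.

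**Figure D1:**
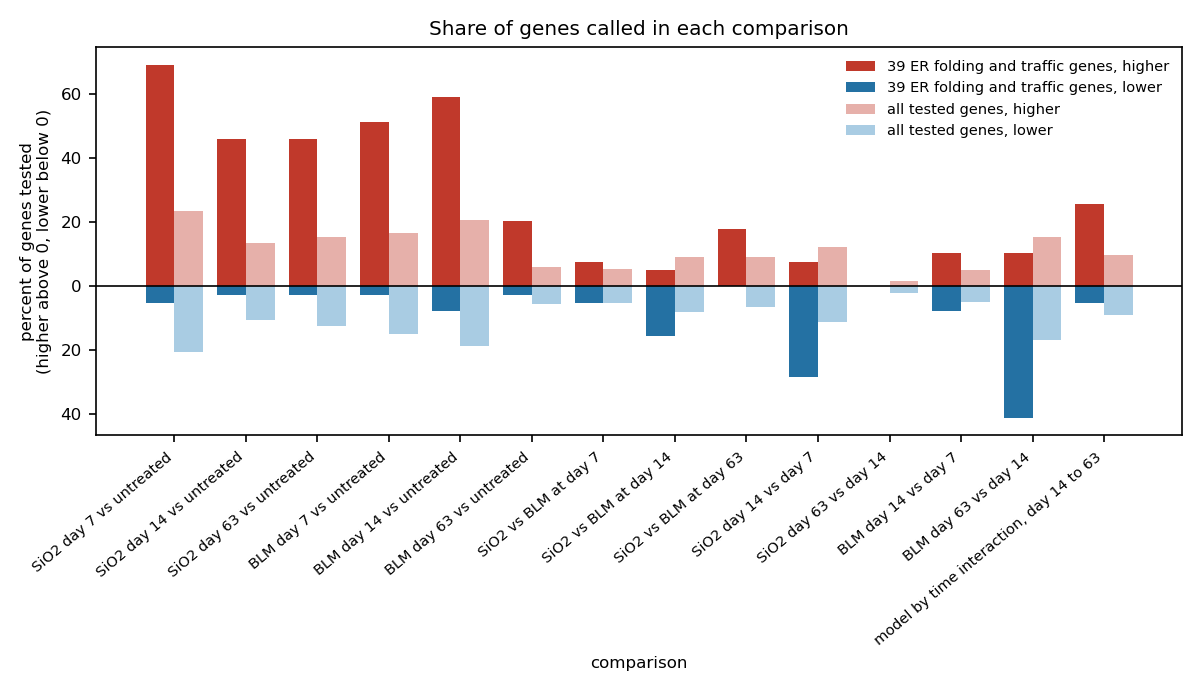
Percent of the 39 tested endoplasmic reticulum genes (dark bars) and of all 11669 tested genes (pale bars) called higher (above 0) or lower (below 0) in each of 14 comparisons. The dark bar exceeds the pale one among genes called higher in all 6 comparisons with untreated fibroblasts, and among genes called lower in SiO2 day 14 against day 7 and in BLM day 63 against day 14.

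The 40 genes took 1.60% to 1.76% of the counts at SiO2 day 7, 1.43% to 1.51% at SiO2 day 14 and 1.49% to 1.65% at SiO2 day 63. They took 1.48% to 1.66%, 1.46% to 1.54% and 1.37% to 1.49% at day 7, 14 and 63 of BLM, and 1.17% to 1.25% in untreated libraries. All 18 treated libraries were thus above all 3 untreated ones. This sum is weighted to genes with many counts, such as Pdia3 at a mean of 4245 CPM over all libraries, and does not hold for each role. Transcription factors summed to 245 to 270 CPM in untreated libraries and lay below these in every treated group. The degradation sum overlapped with untreated in each group other than SiO2 day 14. In sorted bulk samples a shift in the kinds of cell caught by the gate and a shift in RNA per cell cannot be told apart. The 10 proliferation genes summed to 272 to 383, 33.3 to 71.0 and 37.1 to 51.4 CPM at day 7, 14 and 63 of SiO2 and 245 to 294, 104 to 213 and 18.9 to 25.5 CPM at the same days of BLM, against 20.7 to 30.4 CPM in untreated libraries. The 12 immediate-early and dissociation genes summed to 22207 to 24973, 30487 to 39973 and 29205 to 31724 CPM at day 7, 14 and 63 of SiO2 and 24266 to 30679.8, 22330.4 to 27089.7 and 38209 to 41276 CPM at the same days of BLM, against 37518 to 41671 CPM in untreated libraries. This second list was below all untreated libraries at SiO2 day 7 and day 63 and at BLM day 7 and day 14, and overlapped with them at SiO2 day 14 and BLM day 63. The part of either list in the rises was not tested.

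**Figure D2:**
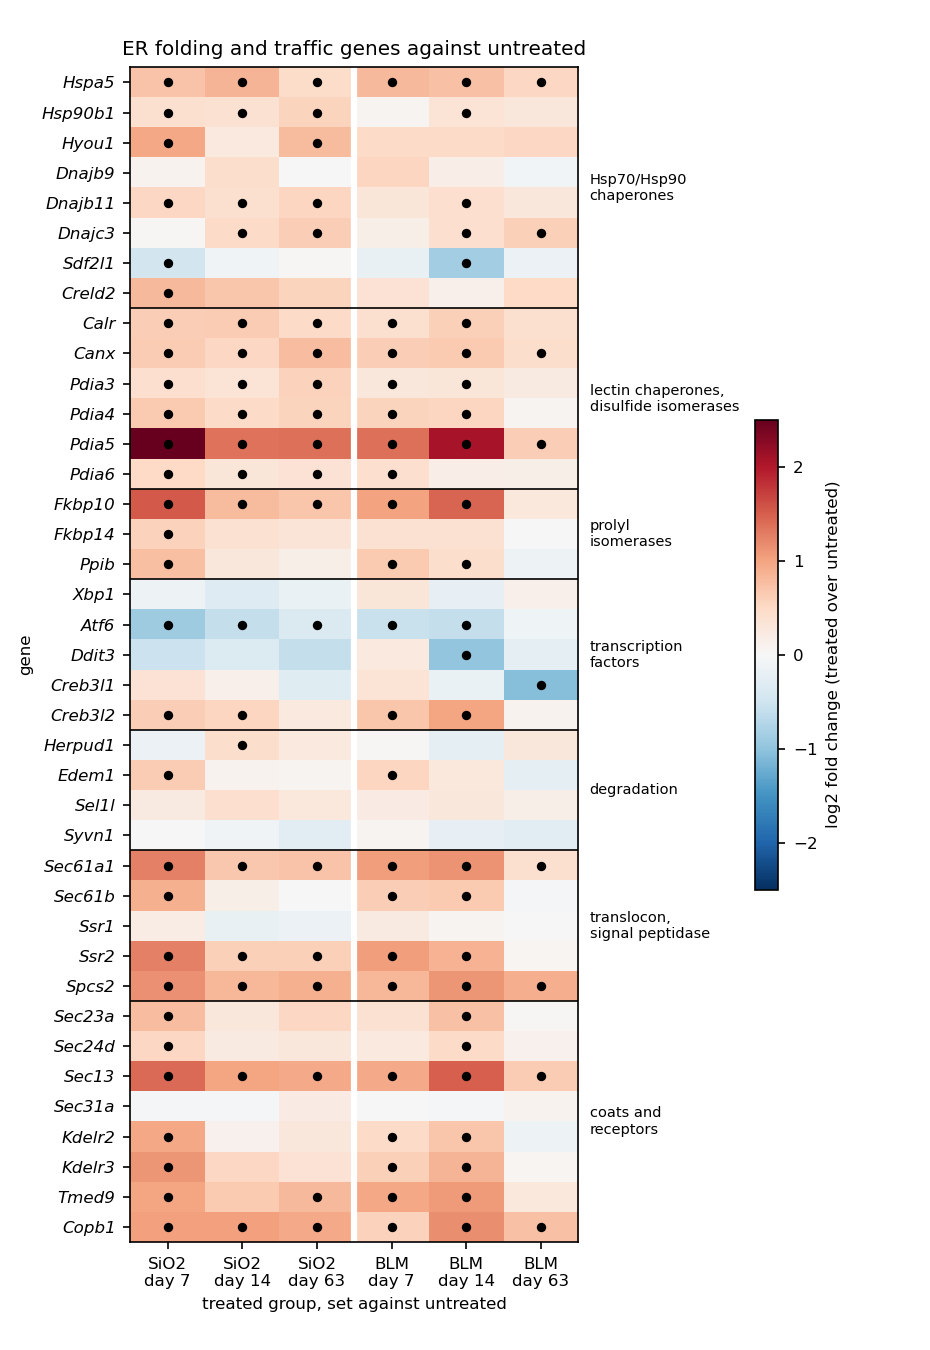
Log2 fold change of 39 genes (rows, in blocks by role) in 6 treated groups (columns) over untreated fibroblasts, red for higher and blue for lower, with a black dot where edgeR's adjusted p was under 0.05. The blocks of disulfide isomerases, channel and coats are mostly red with dots, whereas the transcription factor and degradation blocks hold most of the blue cells and few dots.

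Among the 8 tested Hsp70 and Hsp90 chaperones and their partners, 5 rose and 1 fell at SiO2 day 7, 4 rose at SiO2 day 14 and 5 at SiO2 day 63. In BLM fibroblasts 1 rose at day 7, 4 rose and 1 fell at day 14, and 2 rose at day 63. All tested genes were called higher in shares of 23.4%, 13.6% and 15.3% at day 7, 14 and 63 of SiO2. The shares in BLM were 16.7%, 20.7% and 6.02%, so the 1 of 8 at BLM day 7 was no excess. Hspa5 (chr2:34771970-34777547, plus strand, in mm10 with GENCODE vM21 annotation) encodes BiP, the Hsp70 of the reticulum and the usual marker of the unfolded protein response. Hspa5 had 1634, 1887 and 1547 CPM at SiO2 day 7, 1962, 1829 and 1828 CPM at SiO2 day 14 and 1383, 1488 and 1392 CPM at SiO2 day 63. It had 2268, 1752 and 1427 CPM at BLM day 7, 1674, 1842 and 1619 CPM at BLM day 14 and 1364, 1382 and 1700.5 CPM at BLM day 63, against 954, 1152 and 999 CPM in the untreated libraries. All treated libraries exceeded all untreated ones, and SiO2 and BLM libraries overlapped at each day. The log2 fold changes, given with their SE, were 0.71 ± 0.12, 0.86 ± 0.12 and 0.46 ± 0.12 in SiO2 and 0.81 ± 0.12, 0.73 ± 0.12 and 0.52 ± 0.12 in BLM at day 7, 14 and 63, with adjusted p of at most 0.00447. The call at BLM day 63 ended without BLM day 63 replicate 3 (adjusted p = 0.0550).

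The partners of BiP moved less evenly. Hsp90b1, the Hsp90 of the reticulum, had 975, 1297 and 1104 CPM at SiO2 day 7, 1307, 1057 and 1007 CPM at SiO2 day 14 and 1141, 1443 and 1178 CPM at SiO2 day 63. It had 848, 1057 and 781 CPM at BLM day 7, 1099.8, 1125 and 1036 CPM at BLM day 14 and 943, 1037 and 1167 CPM at BLM day 63, against 850.4, 953 and 766 CPM in the untreated libraries. All SiO2 libraries lay above the untreated ones, whereas BLM day 7 and day 63 overlapped with them. Hsp90b1 rose by 0.55 ± 0.13 (log2) at SiO2 day 63 (adjusted p = 0.00109). It also passed at SiO2 day 7 and day 14 and at BLM day 14, but those calls were not stable. At SiO2 day 7 the call ended without untreated replicate 3 or SiO2 day 7 replicate 2 (adjusted p = 0.0831 to 0.112), and at SiO2 day 14 without untreated replicates 1 or 3 or SiO2 day 14 replicate 1 (adjusted p = 0.0733 to 0.172). At BLM day 14 it ended without untreated replicates 1 or 3 or BLM day 14 replicates 1 or 2 (adjusted p = 0.0632 to 0.156).

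Dnajc3, a cochaperone known for restraining PERK, passed at day 14 and 63 of both models and at day 7 of neither. Its log2 fold change was 0.02 ± 0.11 at SiO2 day 7, which did not pass, and 0.48 ± 0.11 and 0.62 ± 0.11 at SiO2 day 14 and 63, which did. In BLM it was 0.15 ± 0.11 at day 7, which did not pass, and 0.41 ± 0.11 and 0.59 ± 0.11 at day 14 and 63, which did (adjusted p = 2.85e-04 at day 63, edgeR). Dnajb11, a BiP cochaperone that binds unfolded chains, rose in all 3 SiO2 groups, by 0.40 to 0.53, and at BLM day 14 by 0.42. Its calls ended at SiO2 day 14 without untreated replicate 3 or SiO2 day 14 replicate 1 (adjusted p = 0.0970 to 0.110) and at BLM day 14 without untreated replicate 3 or BLM day 14 replicate 3 (adjusted p = 0.0533 to 0.0581).

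Hyou1 and Sdf2l1 went opposite ways. Hyou1, a nucleotide exchange factor for BiP, had 12.5, 13.3 and 11.1 CPM at SiO2 day 7, 7.13, 7.99 and 7.05 CPM at SiO2 day 14 and 8.41, 13.0 and 11.1 CPM at SiO2 day 63. It had 9.58, 9.77 and 6.66 CPM at BLM day 7, 10.6, 6.87 and 8.84 CPM at BLM day 14 and 7.96, 9.18 and 9.78 CPM at BLM day 63, against 8.81, 4.77 and 4.68 CPM in the untreated libraries. These low levels gave a rise of 0.97 ± 0.25 at SiO2 day 7 (adjusted p = 0.00213) with no overlap, and a call at SiO2 day 63 that ended without untreated replicates 2 or 3 or SiO2 day 63 replicate 2 (adjusted p = 0.0732 to 0.134). Sdf2l1, a partner of the Dnajb11 chaperone complex and elsewhere a sensitive stress-response gene, had 199, 172 and 127 CPM at SiO2 day 7, 204, 194 and 249.8 CPM at SiO2 day 14 and 191, 270.5 and 235 CPM at SiO2 day 63. It had 219, 212 and 167 CPM at BLM day 7, 114, 151 and 112 CPM at BLM day 14 and 199.9, 205 and 211 CPM at BLM day 63, against 240.4, 247 and 196 CPM in the untreated libraries. The 2 lowest libraries were both of BLM day 14, whose 3 libraries lay below all untreated ones. Sdf2l1 fell by 0.86 at BLM day 14 (adjusted p = 2.86e-05), and its fall at SiO2 day 7 ended without untreated replicate 2 or SiO2 day 7 replicate 3 (adjusted p = 0.0598 to 0.112). Dnajb9, a cochaperone that is a target of XBP1, was called in no treated group, with log2 fold changes of -0.07 to 0.53. Creld2, a stress-induced resident protein, rose at SiO2 day 7 by 0.81 ± 0.26, a call that ended without untreated replicate 2 or SiO2 day 7 replicate 2 (adjusted p = 0.0763 to 0.128).

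The promoters of these chaperones are the textbook place of the endoplasmic reticulum stress element, letters bound by NF-Y together with ATF6 or XBP1. RefSeq promoters (GRCm38.p6, 250 bases before to 50 after each start) were given for 32 of the 40 genes. Fkbp10, Sec61a1, Ssr2, Hyou1, Creb3l1, Kdelr2, Atf6 and Manf had none there, so their promoters were not searched. The element was searched on both strands as CCAAT, 9 free bases and CCACG. These letters were found in 8 of the 32 (25.0%) and in 37 of 27025 symbols with a promoter (0.137%). Since the element is known from promoters of such chaperones, this excess follows from the choice of genes and is no result of the counts. The genes with the letters were Hspa5, Hsp90b1 with 2 matches, Dnajc3, Creld2, Calr, Canx, Pdia6 and Syvn1. Each match is shown with 20 bases on either side because identical letters stand here beside unequal changes. For Hspa5 the 250 bases before the start are shown whole. Capitals mark the fixed letters of the element, and each line is read on the strand on which the element runs as spelled.
Hspa5, the 250 bases upstream, chr2:34771840-34772089, plus strand: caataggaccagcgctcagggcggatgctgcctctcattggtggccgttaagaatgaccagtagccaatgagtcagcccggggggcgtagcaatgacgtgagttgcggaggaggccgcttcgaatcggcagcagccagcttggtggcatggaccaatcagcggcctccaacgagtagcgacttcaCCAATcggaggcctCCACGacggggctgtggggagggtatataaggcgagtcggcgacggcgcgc
Hsp90b1, far match, chr10:86705618-86705676, minus strand: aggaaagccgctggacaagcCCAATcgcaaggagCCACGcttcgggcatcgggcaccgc
Hsp90b1, near match, chr10:86705513-86705571, plus strand: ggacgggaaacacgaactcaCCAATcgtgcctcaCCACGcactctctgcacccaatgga
Dnajc3, chr14:118937807-118937865, plus strand: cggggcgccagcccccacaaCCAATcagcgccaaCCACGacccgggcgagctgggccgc
Creld2, chr15:88819500-88819558, minus strand: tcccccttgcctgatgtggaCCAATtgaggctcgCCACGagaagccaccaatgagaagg
Calr, chr8:84847055-84847113, plus strand: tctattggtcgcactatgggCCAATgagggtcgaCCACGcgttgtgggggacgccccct
Canx, chr11:50325780-50325838, minus strand: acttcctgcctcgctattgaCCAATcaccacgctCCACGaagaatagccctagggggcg
Pdia6, chr12:17266471-17266529, plus strand: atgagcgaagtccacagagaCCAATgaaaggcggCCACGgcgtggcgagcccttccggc
Syvn1, chr19:6046512-6046570, plus strand: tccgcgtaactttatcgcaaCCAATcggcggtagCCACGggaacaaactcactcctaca

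Of the 8 genes with these letters, 6 rose at each day of SiO2 and 4, 5 and 3 rose at day 7, 14 and 63 of BLM, and none fell. The shares of all tested genes called higher were 23.4%, 13.6% and 15.3% in SiO2 and 16.7%, 20.7% and 6.02% in BLM. Their median log2 fold change was 0.56, 0.49 and 0.52 in SiO2 and 0.38, 0.38 and 0.42 in BLM. The 24 genes with a promoter and no such letters had medians of 0.59, 0.40 and 0.28 in SiO2 and 0.46, 0.43 and 0.10 in BLM. At BLM day 63 relative to day 14, none of the 8 was called, whereas 11 of the 24 fell and 3 rose. In that comparison 32.3% of all tested genes were called, 15.4% higher and 16.9% lower. Syvn1 carried the element and was called in no treated group, so the letters did not mark every gene alike. These are counts over few genes and carry no test.

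Other stress letters were rarer in these promoters. The short form, ATTGG, 1 free base and CCACG, was found in Herpud1 and Dnajb11, 2 of 32 genes against 0.0444% of all symbols. The XBP1-type letters TGACGTGG were found in Copb1, Kdelr3, Sec23a and Sec24d, 4 of 32 genes (12.5%) against 0.714% of all symbols. All of these 4 belong to coats or receptors of vesicle traffic, and none of the Hsp70 or Hsp90 chaperones with a promoter held these letters. The ATF4-type letters TGATGNAA were found in Herpud1 only, 1 of 32 genes (3.13%), against 4.51% of all symbols. Examples are shown, with the fixed letters in capitals, because these genes differ in their course over time.
Copb1, chr7:114254681-114254728, plus strand: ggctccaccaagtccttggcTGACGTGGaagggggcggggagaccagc
Kdelr3, chr15:79516358-79516405, minus strand: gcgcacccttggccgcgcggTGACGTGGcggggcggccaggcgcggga
Sec24d, chr3:123267450-123267495, plus strand: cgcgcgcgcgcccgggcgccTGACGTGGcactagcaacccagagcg
Herpud1, short form, chr8:94386357-94386407, plus strand: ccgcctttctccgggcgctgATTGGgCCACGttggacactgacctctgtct
Herpud1, ATF4-type letters, chr8:94386297-94386344, minus strand: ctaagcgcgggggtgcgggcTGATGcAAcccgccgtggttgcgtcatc

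**Figure D3:**
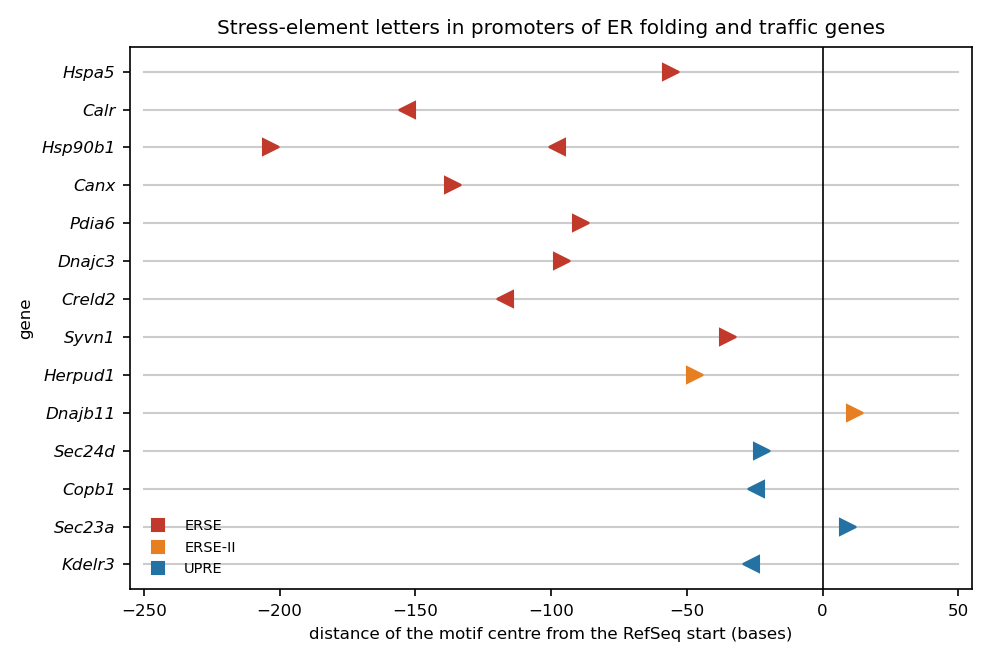
Position of each match in the RefSeq promoter window of 14 genes, in bases from the RefSeq start (0), with the arrowhead pointing right where the letters run with the gene and left where they run against it. Matches to the 19-base element (ERSE) lie upstream of the start in 8 genes, and the short form (ERSE-II) and XBP1-type letters (UPRE) lie within 52 bases of it. A match describes letters and is not a measured binding site.

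The lectin chaperones and disulfide isomerases were the block that moved most completely. All 6 rose at each day of SiO2 and at BLM day 7, 5 rose at BLM day 14 and 2 at BLM day 63. Of all tested genes, 23.4%, 13.6% and 15.3% rose at day 7, 14 and 63 of SiO2 and 16.7%, 20.7% and 6.02% in BLM. The block medians were 0.62, 0.49 and 0.57 in SiO2 and 0.49, 0.57 and 0.31 in BLM. Canx (chr11:50293961-50325673, minus strand) encodes calnexin, the membrane lectin that holds glycoproteins until they are folded. Canx had 530.5, 513 and 528 CPM at SiO2 day 7, 499, 492 and 453 CPM at SiO2 day 14 and 536, 589 and 598 CPM at SiO2 day 63. It had 508, 543 and 502 CPM at BLM day 7, 509, 553 and 528 CPM at BLM day 14 and 432, 468 and 469.6 CPM at BLM day 63, against 331, 353 and 328 CPM in the untreated libraries. No treated library overlapped with the untreated ones, and at day 63 the 3 SiO2 libraries lay above the 3 BLM libraries. Canx rose by 0.63 ± 0.09, 0.51 ± 0.09 and 0.77 ± 0.09 in SiO2 and 0.62 ± 0.09, 0.65 ± 0.09 and 0.44 ± 0.09 in BLM at day 7, 14 and 63, with adjusted p of at most 8.76e-04. Calr, its soluble relative calreticulin, rose in 5 groups by 0.40 to 0.64 and did not pass at BLM day 63 (0.39 ± 0.14). Its calls ended at SiO2 day 63 without SiO2 day 63 replicate 2 (adjusted p = 0.0502) and at BLM day 7 without untreated replicates 1 or 3 or BLM day 7 replicates 2 or 3 (adjusted p = 0.0534 to 0.100).

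Pdia5 (chr16:35397312-35490873, minus strand), a protein disulfide isomerase of the reticulum, changed more than any other of the 39 genes in 5 of the 6 comparisons with untreated fibroblasts. Pdia5 had 106, 132 and 148 CPM at SiO2 day 7, 62.1, 64.2 and 50.3 CPM at SiO2 day 14 and 53.1, 66.3 and 58.8 CPM at SiO2 day 63. It had 42.9, 72.6 and 60.8 CPM at BLM day 7, 107, 95.0 and 83.5 CPM at BLM day 14 and 34.6, 36.4 and 33.8 CPM at BLM day 63, against 24.6, 22.9 and 20.1 CPM in the untreated libraries. All treated libraries lay above the untreated ones, SiO2 was highest at day 7 and BLM at day 14, and BLM day 63 stood closest to untreated. Pdia5 rose by 2.50 ± 0.17, 1.37 ± 0.17 and 1.38 ± 0.17 in SiO2 and 1.37 ± 0.17, 2.06 ± 0.17 and 0.61 ± 0.18 in BLM at day 7, 14 and 63. Adjusted p ran from 3.13e-13 at SiO2 day 7 to 0.0215 at BLM day 63, and the last call ended without untreated replicates 2 or 3 or BLM day 63 replicates 2 or 3 (adjusted p = 0.0526 to 0.0786).

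The other isomerases changed less than Pdia5. Pdia3, the thiol partner of calnexin and calreticulin, had 4746, 4808 and 4153 CPM at SiO2 day 7, 4130.5, 4451 and 4409 CPM at SiO2 day 14 and 4804, 5555 and 4970.5 CPM at SiO2 day 63. It had 3831, 4627 and 3992 CPM at BLM day 7, 4204, 4495 and 3886 CPM at BLM day 14 and 3779, 3943 and 4149 CPM at BLM day 63, against 3477, 3431 and 3307 CPM in the untreated libraries. The 6 treated groups did not overlap with untreated, and the 2 highest libraries were of SiO2 day 63. It rose by 0.59 ± 0.09 at SiO2 day 63 (adjusted p = 6.52e-06) and did not pass at BLM day 63 (0.22 ± 0.09). Its call at BLM day 7 ended without untreated replicate 3 or BLM day 7 replicate 2 (adjusted p = 0.0505 to 0.127). Pdia6 had 2281, 2329.7 and 2011 CPM at SiO2 day 7, 1992, 1949 and 1786 CPM at SiO2 day 14 and 1804, 2057 and 2094 CPM at SiO2 day 63. It had 1981, 2102 and 2122 CPM at BLM day 7, 1719, 1847 and 1670.5 CPM at BLM day 14 and 1632, 1872 and 1622 CPM at BLM day 63, against 1642, 1509 and 1508 CPM in the untreated libraries. Overlap with untreated was seen at BLM day 63 only, and Pdia6 rose at SiO2 day 7 by 0.51 ± 0.09 (adjusted p = 3.08e-05). Its call at SiO2 day 14 ended without untreated replicates 2 or 3 or SiO2 day 14 replicates 1 or 2 (adjusted p = 0.0571 to 0.0683). Pdia4 rose by 0.48 to 0.65 in SiO2 and by 0.56 and 0.53 at day 7 and 14 of BLM, and had 0.07 ± 0.13 at BLM day 63.

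Of the 3 prolyl isomerases, 3, 1 and 1 rose at day 7, 14 and 63 of SiO2 and 2, 2 and 0 at the same days of BLM. The shares of all tested genes that rose were 23.4%, 13.6% and 15.3% in SiO2 and 16.7%, 20.7% and 6.02% in BLM. Fkbp10 (chr11:100415697-100424824, plus strand) encodes FKBP65, a prolyl isomerase and procollagen chaperone. Fkbp10 had 88.8, 87.4 and 102 CPM at SiO2 day 7, 59.1, 60.0 and 47.9 CPM at SiO2 day 14 and 58.1, 49.0 and 48.3 CPM at SiO2 day 63. It had 56.3, 65.5 and 72.6 CPM at BLM day 7, 91.5, 79.5 and 94.8 CPM at BLM day 14 and 31.6, 42.5 and 41.6 CPM at BLM day 63, against 32.9, 30.4 and 33.2 CPM in the untreated libraries. Only BLM day 63 overlapped with untreated. The log2 fold changes at day 7, 14 and 63 were 1.53 ± 0.14, 0.79 ± 0.14 and 0.69 ± 0.14 in SiO2 and 1.01 ± 0.14, 1.46 ± 0.14 and 0.26 ± 0.15 in BLM. Those that passed had adjusted p from 1.77e-10 to 3.65e-04, and BLM day 63 did not pass (adjusted p = 0.273).

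Ppib, cyclophilin B, which acts on procollagen beside the prolyl hydroxylation complex, was high in the early groups. Ppib had 212, 201 and 175 CPM at SiO2 day 7, 136, 159.6 and 129.7 CPM at SiO2 day 14 and 117, 129 and 137 CPM at SiO2 day 63. It had 182, 161 and 207 CPM at BLM day 7, 156, 149.7 and 167 CPM at BLM day 14 and 106, 123 and 91.8 CPM at BLM day 63, against 120.4, 107 and 121 CPM in the untreated libraries. Day 63 libraries of both models overlapped with untreated, and those of day 7 did not. It rose by 0.76 ± 0.12 at SiO2 day 7, 0.66 ± 0.12 at BLM day 7 and 0.44 ± 0.12 at BLM day 14. The largest of these adjusted p was 0.00381. Fkbp14, a relative that also acts on collagens, rose at SiO2 day 7 by 0.57 ± 0.20, a call that ended without untreated replicate 2 (adjusted p = 0.120).

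At the entry channel, 4 of 5 genes rose at SiO2 day 7, BLM day 7 and BLM day 14, 3 at SiO2 day 14 and 63, and 2 at BLM day 63. At day 7, 14 and 63, 23.4%, 13.6% and 15.3% of all tested genes rose in SiO2 and 16.7%, 20.7% and 6.02% in BLM. Sec61a1 (chr6:88503579-88518905, minus strand) encodes the pore subunit. Sec61a1 had 113, 119 and 119 CPM at SiO2 day 7, 81.7, 79.4 and 75.3 CPM at SiO2 day 14 and 81.5, 72.9 and 87.7 CPM at SiO2 day 63. It had 93.7, 114 and 95.1 CPM at BLM day 7, 133, 89.6 and 98.1 CPM at BLM day 14 and 63.5, 64.3 and 67.8 CPM at BLM day 63, against 46.4, 49.0 and 52.9 CPM in the untreated libraries. All treated libraries exceeded all untreated ones. Sec61a1 rose by 1.25 ± 0.13, 0.68 ± 0.13 and 0.72 ± 0.13 in SiO2 and 1.04 ± 0.13, 1.12 ± 0.13 and 0.41 ± 0.13 in BLM at day 7, 14 and 63, with adjusted p from 1.82e-09 at SiO2 day 7 to 0.0382 at BLM day 63. The last call ended without untreated replicates 1, 2 or 3 or BLM day 63 replicates 1, 2 or 3 (adjusted p = 0.0507 to 0.169).

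Sec61b, a small subunit of the channel, followed an early course. Sec61b had 2475, 2768 and 2649 CPM at SiO2 day 7, 1737, 1584 and 1442 CPM at SiO2 day 14 and 1463, 1415 and 1367 CPM at SiO2 day 63. It had 2063, 2274 and 2209 CPM at BLM day 7, 2354, 2222 and 2181 CPM at BLM day 14 and 1251, 1362 and 1541 CPM at BLM day 63, against 1621, 1514 and 1152 CPM in the untreated libraries. Libraries of day 7 in both models and of BLM day 14 lay above all untreated ones, while SiO2 day 14 and both day 63 groups overlapped with them. It rose by 0.88 ± 0.11 at SiO2 day 7 (adjusted p = 4.57e-08), and its change at SiO2 day 14 was 0.15 ± 0.10 (adjusted p = 0.328).

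Ssr2 encodes a subunit of the translocon-associated complex, which helps chains into the channel. Ssr2 had 45.1, 40.9 and 37.5 CPM at SiO2 day 7, 28.8, 27.2 and 21.4 CPM at SiO2 day 14 and 31.5, 21.6 and 24.3 CPM at SiO2 day 63. It had 29.3, 38.6 and 38.0 CPM at BLM day 7, 28.3, 32.3 and 32.9 CPM at BLM day 14 and 16.2, 15.8 and 20.7 CPM at BLM day 63, against 19.4, 17.6 and 13.1 CPM in the untreated libraries. Only BLM day 63 overlapped with untreated. It rose by 1.27 ± 0.17 at SiO2 day 7 and 1.04 ± 0.18 at BLM day 7 (adjusted p = 5.75e-07 and 3.07e-05). Its calls ended at SiO2 day 14 without untreated replicate 3 or SiO2 day 14 replicates 1 or 2 (adjusted p = 0.0722 to 0.0860) and at SiO2 day 63 without untreated replicate 3 or SiO2 day 63 replicate 1 (adjusted p = 0.0749 to 0.114). Ssr1, the partner subunit in the same complex, was called in no treated group. Ssr1 had 1064, 1111 and 1169 CPM at SiO2 day 7, 821, 803 and 979 CPM at SiO2 day 14 and 908, 925 and 854 CPM at SiO2 day 63. It had 1176, 1214 and 1079 CPM at BLM day 7, 1182, 998 and 932 CPM at BLM day 14 and 1023, 926 and 986 CPM at BLM day 63, against 1024, 996 and 938 CPM in the untreated libraries. Day 7 libraries of both models lay above the untreated ones and those of SiO2 day 63 below, but the log2 fold changes of -0.19 to 0.23 did not pass. Spcs2, a subunit of the signal peptidase that trims the entering chain, rose in every treated group, by 0.84 to 1.14, and each of these calls stood with any 1 library left out.

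Among the 8 genes of coats and receptors, 7 rose at SiO2 day 7, 2 at SiO2 day 14 and 3 at SiO2 day 63. In BLM 5, 7 and 2 rose at day 7, 14 and 63, and none fell in either model. All tested genes rose in shares of 23.4%, 13.6% and 15.3% at these days of SiO2 and 16.7%, 20.7% and 6.02% in BLM. Sec13 (chr6:113728062-113740743, minus strand), a subunit of the outer COPII coat that also sits in nuclear pores, had 104, 163 and 156 CPM at SiO2 day 7, 132, 115 and 67.5 CPM at SiO2 day 14 and 94.6, 104 and 107 CPM at SiO2 day 63. It had 92.0, 122 and 91.3 CPM at BLM day 7, 177, 118 and 152 CPM at BLM day 14 and 83.4, 83.8 and 80.7 CPM at BLM day 63, against 52.8, 49.7 and 57.1 CPM in the untreated libraries. Treated libraries were all above untreated ones, although SiO2 day 14 replicate 3 was far below its fellows. Sec13 rose by 1.41 ± 0.19, 0.98 ± 0.19 and 0.94 ± 0.19 in SiO2 and 0.94 ± 0.19, 1.49 ± 0.19 and 0.64 ± 0.19 in BLM at day 7, 14 and 63. Adjusted p ran from 1.35e-07 at BLM day 14 to 0.0239 at BLM day 63, and the last call ended without untreated replicates 1 or 2 or BLM day 63 replicates 1, 2 or 3 (adjusted p = 0.0557 to 0.0954).

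Sec31a, which pairs with Sec13 in the outer coat, did not share this course. Sec31a had 939.8, 906 and 936 CPM at SiO2 day 7, 889, 847 and 1087 CPM at SiO2 day 14 and 1032, 1002 and 1252 CPM at SiO2 day 63. It had 931, 974 and 961 CPM at BLM day 7, 915, 928 and 980.2 CPM at BLM day 14 and 1117, 1092 and 857 CPM at BLM day 63, against 1044, 923 and 899 CPM in the untreated libraries. All 6 treated groups overlapped with untreated, and no log2 fold change, at -0.04 to 0.20, passed. The inner-coat genes Sec23a and Sec24d rose at SiO2 day 7 and BLM day 14, by 0.74 to 0.76 for Sec23a and 0.47 to 0.52 for Sec24d. None of those 4 calls was stable. Sec23a ended at SiO2 day 7 without untreated replicate 1 or SiO2 day 7 replicate 2 (adjusted p = 0.0553 to 0.0991) and at BLM day 14 without untreated replicate 1 or BLM day 14 replicate 2 (adjusted p = 0.132 to 0.209). Sec24d ended at SiO2 day 7 without untreated replicates 1 or 2 or SiO2 day 7 replicate 2 (adjusted p = 0.0777 to 0.0854) and at BLM day 14 without untreated replicates 1 or 2 or BLM day 14 replicate 3 (adjusted p = 0.127 to 0.271).

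Copb1 (chr7:114215559-114254711, minus strand), a subunit of the COPI coat of retrograde vesicles, had 129.7, 172 and 175 CPM at SiO2 day 7, 177, 178 and 119.5 CPM at SiO2 day 14 and 155, 153 and 144 CPM at SiO2 day 63. It had 99.2, 128 and 124 CPM at BLM day 7, 197, 158 and 169 CPM at BLM day 14 and 124, 118 and 147 CPM at BLM day 63, against 57.5, 82.6 and 96.9 CPM in the untreated libraries. Every treated library was above every untreated one, although the highest untreated library and the lowest treated one were close. Copb1 rose by 1.02 ± 0.16, 1.02 ± 0.16 and 0.95 ± 0.16 in SiO2 and 0.58 ± 0.16, 1.16 ± 0.16 and 0.73 ± 0.16 in BLM at day 7, 14 and 63, with adjusted p of at most 0.00618. The call at BLM day 7 ended without untreated replicate 1 (adjusted p = 0.0796).

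The retrieval receptors rose early. Kdelr2 and Kdelr3, which return escaped chaperones by their carboxy-terminal signal, rose at SiO2 day 7 by 0.97 ± 0.15 and 1.10 ± 0.20, and at BLM day 14 by 0.69 ± 0.16 and 0.86 ± 0.21. Neither passed at SiO2 day 14 or at day 63 of either model. Their calls at BLM day 7 ended without untreated replicate 2 or BLM day 7 replicate 1 (adjusted p = 0.0861 to 0.141) for Kdelr2 and without untreated replicate 2 or BLM day 7 replicate 2 (adjusted p = 0.137 to 0.267) for Kdelr3. Tmed9, a cargo receptor of the p24 family, rose at both early days of BLM by 0.96 and 1.06 and at SiO2 day 7 by 0.99, on levels between 3.75 and 11.2 CPM. Its call at SiO2 day 63 ended without untreated replicates 2 or 3 or SiO2 day 63 replicates 1 or 2 (adjusted p = 0.0556 to 0.0632).

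**Figure D4:**
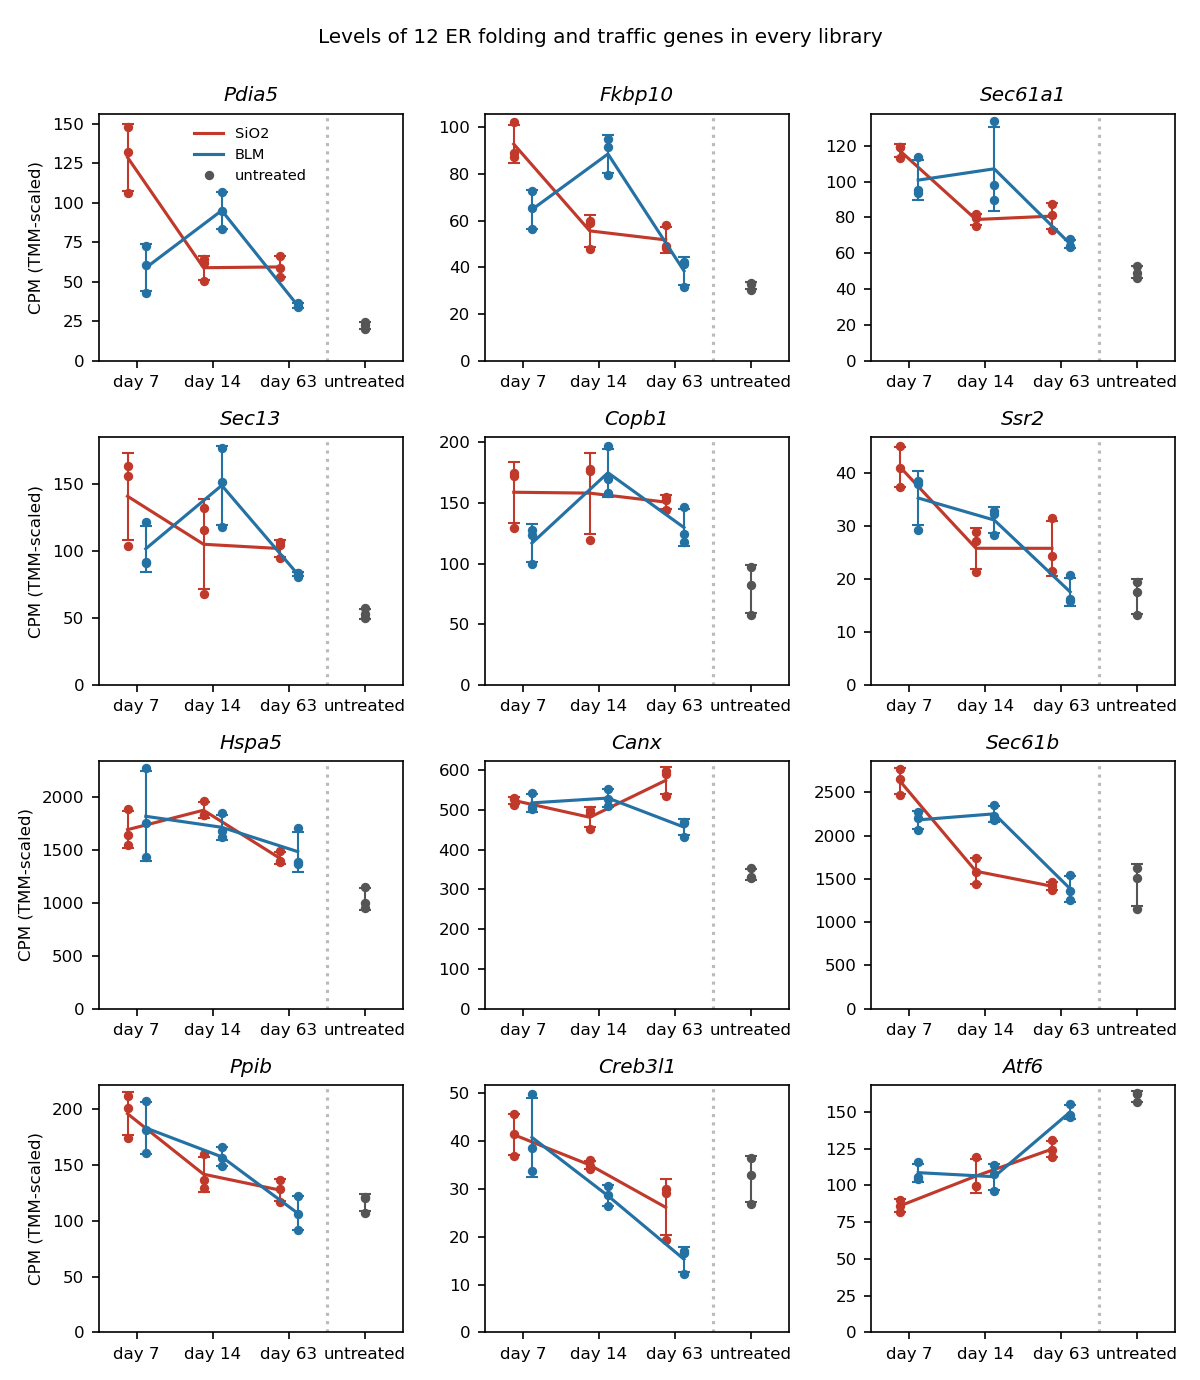
TMM-scaled CPM of 12 genes in every library (points), with the group mean and SD (bars, n = 3) and lines joining the means of SiO2 (red) and BLM (blue) over day 7, 14 and 63, and untreated libraries in grey at the right. Pdia5 and Fkbp10 peak at day 7 in SiO2 and at day 14 in BLM, Hspa5 and Canx stay above untreated throughout, and Atf6 lies below untreated in every treated group.

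The transcription factors that direct the response did not rise as a block. Of 5, 1 rose and 1 fell at SiO2 day 7 and day 14, none rose and 1 fell at SiO2 day 63, 1 rose and 1 fell at BLM day 7, 1 rose and 2 fell at BLM day 14 and 1 fell at BLM day 63. At day 7, 14 and 63 of SiO2, 23.4%, 13.6% and 15.3% of all tested genes were called higher and 20.6%, 10.5% and 12.5% lower. The BLM shares were 16.7%, 20.7% and 6.02% higher and 14.9%, 18.5% and 5.48% lower. Atf6 (chr1:170704674-170867771, minus strand), the membrane-bound sensor whose cleaved form enters the nucleus, had 86.3, 81.6 and 90.4 CPM at SiO2 day 7, 99.8, 99.7 and 119.5 CPM at SiO2 day 14 and 131, 124 and 119 CPM at SiO2 day 63. It had 116, 106 and 105 CPM at BLM day 7, 114, 108 and 96.4 CPM at BLM day 14 and 155, 147 and 148 CPM at BLM day 63, against 163, 156 and 162 CPM in the untreated libraries. All treated libraries lay below all untreated ones. Its log2 fold changes at day 7, 14 and 63 were -0.90 ± 0.10, -0.59 ± 0.10 and -0.36 ± 0.10 in SiO2 and -0.56 ± 0.10, -0.60 ± 0.10 and -0.10 ± 0.10 in BLM, and 5 of these passed with adjusted p of at most 0.00498. BLM day 63 did not pass (adjusted p = 0.599).

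Xbp1, the target of IRE1, was called in no treated group. Xbp1 had 36.9, 36.4 and 41.0 CPM at SiO2 day 7, 36.8, 37.8 and 25.8 CPM at SiO2 day 14 and 31.0, 41.5 and 38.5 CPM at SiO2 day 63. It had 58.9, 42.8 and 52.9 CPM at BLM day 7, 29.3, 40.3 and 38.4 CPM at BLM day 14 and 45.3, 41.9 and 47.8 CPM at BLM day 63, against 45.3, 41.7 and 36.5 CPM in the untreated libraries. The groups overlapped with untreated throughout, with log2 fold changes of -0.32 to 0.31. Counts per gene read neither the splicing of Xbp1 nor the cleavage of Atf6, so they do not measure the activity of either factor. Ddit3, which encodes CHOP of the PERK branch, was low, at 4.42 to 14.6 CPM over all libraries, and fell at BLM day 14 by 0.98, a call that ended without untreated replicate 1 (adjusted p = 0.0524). Outside the 40 genes, Atf4, the factor translated under PERK, fell by 0.53 at SiO2 day 7 and by 0.35 at BLM day 14 (adjusted p = 4.89e-04 and 0.0183), and Eif2ak3, which encodes PERK, passed in no treated group.

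Creb3l1 and Creb3l2 encode relatives of ATF6 known for secretory genes of bone and cartilage. Creb3l1 had 41.4, 36.9 and 45.6 CPM at SiO2 day 7, 34.2, 36.0 and 34.7 CPM at SiO2 day 14 and 30.0, 29.0 and 19.4 CPM at SiO2 day 63. It had 38.6, 33.8 and 49.8 CPM at BLM day 7, 28.6, 26.3 and 30.7 CPM at BLM day 14 and 16.7, 16.9 and 12.2 CPM at BLM day 63, against 36.5, 26.9 and 32.8 CPM in the untreated libraries. The BLM day 63 libraries were lower than all 18 others. Creb3l1 fell by 1.07 at BLM day 63 (SE 0.19, adjusted p = 1.70e-04) and passed in no other treated group. Creb3l2 had 20.3, 20.2 and 17.5 CPM at SiO2 day 7, 20.5, 19.2 and 15.5 CPM at SiO2 day 14 and 15.8, 14.4 and 14.9 CPM at SiO2 day 63. It had 18.3, 20.9 and 22.2 CPM at BLM day 7, 26.8, 24.5 and 23.8 CPM at BLM day 14 and 17.2, 13.2 and 10.2 CPM at BLM day 63, against 12.2, 10.8 and 15.9 CPM in the untreated libraries. Both day 63 groups and SiO2 day 14 overlapped with untreated, and the 3 BLM day 14 libraries were the highest. It rose by 0.98 ± 0.19 at BLM day 14 and 0.69 ± 0.19 at BLM day 7 (adjusted p = 9.37e-05 and 0.00563). Its rise at SiO2 day 7 ended without untreated replicate 2 (adjusted p = 0.0713) and that at SiO2 day 14 without untreated replicates 1 or 2 or SiO2 day 14 replicates 1 or 2 (adjusted p = 0.119 to 0.189).

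Few calls were made among genes of degradation. Of 4, 1 rose at SiO2 day 7, SiO2 day 14 and BLM day 7, and none in the other 3 groups. Beside these counts stand 23.4%, 13.6% and 16.7% of all tested genes called higher in those groups, so with 4 genes the block did not stand apart. Herpud1, a membrane protein of the degradation complex and a target of the unfolded protein response, had 40.1, 41.2 and 42.5 CPM at SiO2 day 7, 58.5, 70.9 and 57.6 CPM at SiO2 day 14 and 53.9, 58.0 and 51.6 CPM at SiO2 day 63. It had 57.5, 40.1 and 43.1 CPM at BLM day 7, 42.0, 37.7 and 36.8 CPM at BLM day 14 and 57.2, 54.8 and 54.9 CPM at BLM day 63, against 49.7, 46.0 and 41.2 CPM in the untreated libraries. Only SiO2 day 14, SiO2 day 63 and BLM day 63 lay wholly above the untreated libraries. The rise at SiO2 day 14, 0.44 ± 0.13, ended without untreated replicate 3 or SiO2 day 14 replicate 2 (adjusted p = 0.0608 to 0.122). Edem1, a lectin that hands misfolded glycoproteins to degradation, had 48.7, 42.8 and 37.0 CPM at SiO2 day 7, 32.1, 30.1 and 25.8 CPM at SiO2 day 14 and 26.5, 26.4 and 32.9 CPM at SiO2 day 63. It had 47.3, 39.1 and 33.0 CPM at BLM day 7, 34.6, 29.9 and 34.3 CPM at BLM day 14 and 24.4, 18.4 and 26.0 CPM at BLM day 63, against 20.98, 32.4 and 29.5 CPM in the untreated libraries. Day 7 libraries of both models lay above untreated, by 0.64 ± 0.17 in SiO2 (adjusted p = 0.00282) and 0.54 ± 0.17 in BLM, where the call ended without untreated replicate 1 or BLM day 7 replicate 1 (adjusted p = 0.114 to 0.157). Syvn1 and Sel1l, the ubiquitin ligase of the complex and its adaptor, were called in no treated group. Syvn1 had 59.7, 62.7 and 53.2 CPM at SiO2 day 7, 49.9, 60.2 and 55.9 CPM at SiO2 day 14 and 43.4, 47.7 and 56.1 CPM at SiO2 day 63. It had 82.7, 50.2 and 52.6 CPM at BLM day 7, 45.2, 59.5 and 48.9 CPM at BLM day 14 and 47.8, 50.5 and 49.6 CPM at BLM day 63, against 57.2, 59.0 and 60.4 CPM in the untreated libraries. Day 63 libraries of both models lay below the untreated ones, but its log2 fold changes of -0.26 to 0.07 did not pass.

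Direct comparison of the models at the same day asks whether progressive and reversible fibrosis differ in this machinery. At day 7, 3 genes were higher and 2 lower in SiO2 than in BLM, where 10.4% of all tested genes were called, 5.29% higher and 5.10% lower, so the genes' share was near that of all genes. Pdia5 differed by 1.13 ± 0.15 (adjusted p = 2.45e-06), and its SiO2 libraries lay above all BLM libraries. The other 4 calls each ended when some library was left out. Fkbp10, at 0.52 ± 0.13, ended without BLM day 7 replicate 1 or SiO2 day 7 replicate 3 (adjusted p = 0.0604 to 0.0619). Kdelr2, at 0.49 ± 0.15, ended without BLM day 7 replicates 2 or 3 or SiO2 day 7 replicates 1, 2 or 3 (adjusted p = 0.0524 to 0.133). Atf6, at -0.34 ± 0.10, ended without BLM day 7 replicate 1 or SiO2 day 7 replicates 1 or 2 (adjusted p = 0.0571 to 0.132), and Ddit3, at -0.78 ± 0.24, ended without BLM day 7 replicates 1 or 3 or SiO2 day 7 replicate 2 (adjusted p = 0.0784 to 0.166). The count of 5 became 2 without BLM day 7 replicate 1 or SiO2 day 7 replicate 2, 3 without BLM day 7 replicate 3 or SiO2 day 7 replicate 3, and 8 without SiO2 day 14 replicate 3.

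At day 14, 20.5% of the 39 genes were called, near the 17.1% of all tested genes. Of the 39, 2 were higher and 6 lower in SiO2 than in BLM, where 9.06% of all tested genes were called higher and 8.03% lower. Pdia5 differed by -0.69 ± 0.15, Fkbp10 by -0.67 ± 0.13 and Sec61b by -0.50 ± 0.10 (adjusted p = 0.00126, 3.15e-04 and 7.28e-04), with no overlap of libraries. Sdf2l1 and Herpud1 were higher in SiO2, by 0.78 ± 0.15 and 0.69 ± 0.13 (adjusted p = 2.83e-04 and 2.96e-04). The lower values of Sec61a1, Kdelr2 and Sec13 in SiO2 were not stable. Sec61a1 ended without BLM day 14 replicate 1 or SiO2 day 14 replicate 3 (adjusted p = 0.0515 to 0.189), Kdelr2 without BLM day 14 replicate 2 (adjusted p = 0.0684) and Sec13 without BLM day 14 replicates 1 or 3, SiO2 day 14 replicate 3 or SiO2 day 63 replicate 2 (adjusted p = 0.0511 to 0.337). Of 8 collagen cargo genes, 1 was higher and 4 were lower in SiO2 at day 14. Col1a1, a chain of type I collagen, had 2325, 2643 and 1912 CPM in SiO2 libraries, against 3956, 3316 and 3414 CPM in BLM libraries, and the difference of Col3a1, -0.28 ± 0.12, did not pass (adjusted p = 0.117).

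At day 63, 17.9% of the 39 genes were called, near the 15.6% of all tested genes. The 7 called genes were all higher in SiO2 than in BLM, where 9.13% of all tested genes were called higher and 6.44% lower. They were Canx (0.33 ± 0.09), Pdia3 (0.37 ± 0.09), Pdia4 (0.48 ± 0.12), Pdia5 (0.77 ± 0.16), Fkbp10 (0.43 ± 0.14), Creb3l1 (0.77 ± 0.19) and Ssr2 (0.54 ± 0.18). Adjusted p ran from 7.90e-04 to 0.0315. Libraries of the models did not overlap for any of the 7, nor for some genes that were not called, such as Sec13, Kdelr3 and Xbp1. The share of all tested genes without overlap was not counted. Fkbp10 ended without BLM day 63 replicate 1 or SiO2 day 63 replicate 1 (adjusted p = 0.162 to 0.209) and Ssr2 without BLM day 63 replicates 1 or 2 or SiO2 day 63 replicate 1 (adjusted p = 0.121 to 0.218). None of the lectin chaperones and disulfide isomerases was lower in SiO2, and 4 of the 6 were higher. Hspa5 had 1383, 1488 and 1392 CPM in SiO2 libraries, against 1364, 1382 and 1700.5 CPM in BLM libraries, a difference of -0.06 ± 0.12 that did not pass. At the same day Col1a1 had 1254, 1226 and 1205 CPM in SiO2 libraries, against 505, 606 and 584 CPM in BLM libraries.

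Day 14 was also compared with day 7 within each model, and the difference between models over this interval was not tested. In SiO2, 3 genes rose and 11 fell at day 14 relative to day 7, where 23.3% of all tested genes were called, 12.2% higher and 11.1% lower. The fall took 4 of the 5 channel genes and 2 of the 3 prolyl isomerases. Pdia5 changed by -1.13 ± 0.15, Kdelr2 by -0.86 ± 0.15, Fkbp10 by -0.74 ± 0.13 and Sec61b by -0.73 ± 0.11 (adjusted p of at most 6.09e-05). Dnajc3, Herpud1 and Atf6 rose, by 0.45 ± 0.11, 0.59 ± 0.13 and 0.31 ± 0.10, and the last ended without SiO2 day 7 replicates 1 or 2 or SiO2 day 14 replicate 3 (adjusted p = 0.0572 to 0.185). Hyou1, Edem1, Kdelr3 and Ssr1 fell in calls that did not hold. Hyou1 ended without SiO2 day 7 replicates 1 or 2 or SiO2 day 14 replicates 1 or 3 (adjusted p = 0.0545 to 0.0805) and Edem1 without SiO2 day 7 replicate 1 or SiO2 day 14 replicate 3 (adjusted p = 0.0823 to 0.0878). Kdelr3 ended without SiO2 day 7 replicates 1 or 3 or SiO2 day 14 replicates 1 or 3 (adjusted p = 0.0612 to 0.128) and Ssr1 without SiO2 day 14 replicate 2 (adjusted p = 0.0545).

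In BLM, 4 genes rose and 3 fell at day 14 relative to day 7, where 10.0% of all tested genes were called, 5.20% higher and 4.82% lower. Pdia5 rose by 0.69 ± 0.15, and Sdf2l1 and Ddit3 fell by 0.67 and 1.22 (adjusted p = 0.00252, 0.00319 and 0.00184). The rises of Fkbp10, Copb1 and Sec13 and the fall of Xbp1 were not stable. Fkbp10 ended without BLM day 7 replicates 1 or 2 or BLM day 14 replicates 1 or 3 (adjusted p = 0.0552 to 0.153) and Copb1 without BLM day 7 replicate 1 or BLM day 14 replicate 1 (adjusted p = 0.0825 to 0.104). Sec13 ended without untreated replicates 1, 2 or 3, BLM day 7 replicates 1 or 3, BLM day 14 replicates 1 or 3, BLM day 63 replicates 1, 2 or 3 or SiO2 day 63 replicates 2 or 3 (adjusted p = 0.0523 to 0.218) and Xbp1 without BLM day 7 replicates 1 or 3 or BLM day 14 replicates 1 or 3 (adjusted p = 0.0639 to 0.207). The count of 7 became 3 without BLM day 7 replicate 1 or BLM day 14 replicate 1 and 4 without BLM day 14 replicate 3.

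From day 14 to day 63 BLM fibroblasts lost much of the rise. Relative to day 14, 16 genes fell and 4 rose at BLM day 63, where 32.3% of all tested genes were called, 15.4% higher and 16.9% lower. The falls took 6 of 8 coat and receptor genes, 3 of 5 channel genes and 2 of 3 prolyl isomerases. Pdia5 fell by 1.44, Fkbp10 by 1.20, Creb3l1 by 0.91, Sec13 by 0.85 and Sec61a1 by 0.71 (adjusted p of at most 3.69e-04). Sdf2l1, Atf6, Herpud1 and Ddit3 rose, by 0.71, 0.50, 0.52 and 0.73. Hspa5 changed by -0.21 ± 0.12, which did not pass. The calls of 5 genes ended without some library. Ddit3 ended without BLM day 14 replicates 2 or 3 or BLM day 63 replicate 2 (adjusted p = 0.0942 to 0.150), Edem1 without BLM day 14 replicates 1 or 3 or BLM day 63 replicate 2 (adjusted p = 0.0750 to 0.138) and Copb1 without BLM day 14 replicates 1 or 3 or BLM day 63 replicates 1 or 2 (adjusted p = 0.0534 to 0.151). Sec23a ended without BLM day 14 replicate 2 or BLM day 63 replicates 1 or 2 (adjusted p = 0.0714 to 0.249) and Tmed9 without BLM day 14 replicate 2 (adjusted p = 0.0714).

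In SiO2 fibroblasts few genes of any kind were called over this interval. At SiO2 day 63 relative to day 14, none of the 39 genes was called by edgeR. Among all tested genes 3.52% were called, 1.53% higher and 2.00% lower, so the count of the 39 was near that share. Of the 39, 6 had an unadjusted p under 0.05. DESeq2 and limma-voom each called 1 gene, as did edgeR without BLM day 7 replicate 1 or replicate 3. Log2 changes ran from -0.43 to 0.55 with a median of 0.01, where the BLM median was -0.21.

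The interaction, the change from day 14 to day 63 in SiO2 minus that in BLM, tests this difference. It was positive and called for 10 genes and negative and called for 2, where 18.5% of all tested genes were called, 9.70% higher and 8.81% lower. The positive calls were Pdia5 (1.46 ± 0.22), Fkbp10 (1.10 ± 0.19), Kdelr2 (0.98 ± 0.22), Tmed9 (0.96 ± 0.34), Ssr2 (0.83 ± 0.24), Sec13 (0.81 ± 0.25), Sec61a1 (0.75 ± 0.17), Sec61b (0.54 ± 0.15), Pdia4 (0.54 ± 0.17) and Canx (0.47 ± 0.12). The negative ones were Herpud1 (-0.72 ± 0.18) and Sdf2l1 (-0.61 ± 0.21). Adjusted p was 1.01e-05 for Pdia5 and 6.31e-05 for Fkbp10, and 7 of the 12 calls stood with any library left out. Tmed9 ended without untreated replicates 1, 2 or 3, BLM day 7 replicates 1, 2 or 3, SiO2 day 7 replicate 1, BLM day 14 replicates 1 or 2, SiO2 day 14 replicates 1, 2 or 3, BLM day 63 replicates 1, 2 or 3 or SiO2 day 63 replicates 1 or 2 (adjusted p = 0.0501 to 0.124). Sdf2l1 ended without BLM day 14 replicates 1 or 3, SiO2 day 14 replicate 3, BLM day 63 replicates 1, 2 or 3 or SiO2 day 63 replicates 1 or 3 (adjusted p = 0.0578 to 0.130), Pdia4 without BLM day 14 replicate 2, SiO2 day 14 replicates 2 or 3, BLM day 63 replicate 2 or SiO2 day 63 replicates 2 or 3 (adjusted p = 0.0502 to 0.0836), Ssr2 without SiO2 day 14 replicate 3 or SiO2 day 63 replicate 1 (adjusted p = 0.0567 to 0.0701) and Sec13 without BLM day 14 replicate 1 or SiO2 day 14 replicate 3 (adjusted p = 0.0768 to 0.0772). The count was 7 without SiO2 day 14 replicate 3. Other lists moved with this contrast: 7 of 10 proliferation genes and 4 of 5 tested pericyte and smooth muscle markers were called positive, with medians of 3.42 and 1.74, 8 of 12 immediate-early and dissociation genes were called negative, with a median of -0.77, and of 8 collagen cargo genes 5 were positive and 1 negative. Their part in the interaction was not tested.

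**Figure D5:**
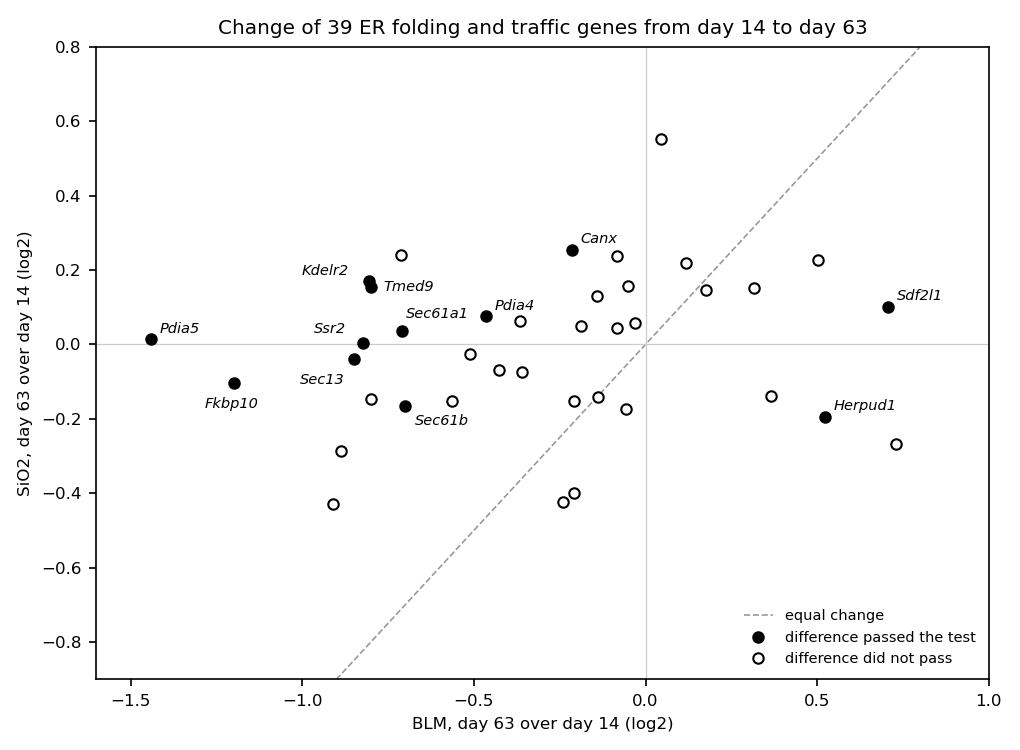
Log2 change of 39 genes from day 14 to day 63 in SiO2 (vertical axis) and in BLM (horizontal axis), filled where the difference between models passed edgeR's test. Pdia5 and Fkbp10 lie far to the left near 0 on the vertical axis, falling by 1.44 and 1.20 in BLM with changes of 0.01 and -0.10 in SiO2.

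The rest of the secretory pathway, taken from lists of genes outside the 40, moved with them in part. These counts stand beside 23.4%, 13.6% and 15.3% of all tested genes called higher, and 44.1%, 24.1% and 27.8% called in either direction, at day 7, 14 and 63 of SiO2. In BLM the shares were 16.7%, 20.7% and 6.02% higher and 31.6%, 39.3% and 11.5% in either direction. Of 19 other redox and folding enzymes, 8, 7 and 9 rose at day 7, 14 and 63 of SiO2 and 8, 9 and 3 at the same days of BLM, and 1 fell at SiO2 day 7 and at BLM day 14. P4hb, a disulfide isomerase and subunit of prolyl 4-hydroxylase, had 593, 548 and 579.7 CPM at SiO2 day 7, 396, 381 and 349 CPM at SiO2 day 14 and 417, 394 and 434 CPM at SiO2 day 63. It had 359, 419 and 376 CPM at BLM day 7, 579, 490.1 and 457 CPM at BLM day 14 and 303, 271 and 318 CPM at BLM day 63, against 216, 229 and 220.1 CPM in the untreated libraries. No treated library overlapped with untreated, and its interaction was 0.92 (adjusted p = 1.20e-05). Serpinh1, which encodes the collagen chaperone HSP47, rose by 1.13, 0.84 and 0.61 in SiO2 and by 0.82 and 0.68 at day 7 and 14 of BLM, with 0.17 at BLM day 63, which did not pass. Of 13 genes for glycan transfer and trimming, 6, 5 and 3 rose in SiO2 and 5, 4 and 2 in BLM at day 7, 14 and 63, and 1 fell at SiO2 day 63. The 4 called of 13 at BLM day 14 were a smaller share than that of all genes called. Among them Ostc, a subunit of the oligosaccharyltransferase, rose by 1.54 ± 0.17 at SiO2 day 7 and 1.61 ± 0.18 at BLM day 14. Of 14 other channel and signal peptidase genes, 9, 3 and 3 rose in SiO2 and 5, 8 and 2 in BLM, and 1 fell at day 14 of each model. At SiO2 day 63 the share of them called was below that of all genes called. Ssr3, another subunit of the complex of Ssr1 and Ssr2, rose by 1.07 ± 0.10 at SiO2 day 7 and 0.86 ± 0.10 at BLM day 14. Of 19 other COPII and export genes, 8, 3 and 3 rose in SiO2 and 4, 7 and 0 in BLM, while 0, 1 and 3 fell in SiO2 and 0, 2 and 1 in BLM, so at day 63 as many fell as rose in SiO2 and 1 fell with none rising in BLM. Their share called was below that of all genes called at SiO2 day 7 and day 14 and at BLM day 7 and day 63. Of 18 other COPI and retrieval genes, 9, 6 and 4 rose in SiO2 and 6, 8 and 1 in BLM, and 1 fell in each group other than BLM day 63. The share of these called was below that of all genes called at BLM day 63 and about equal to it at SiO2 day 63. Copb2, a partner of Copb1 in the coat, rose by 0.86 ± 0.11 at SiO2 day 7 and 0.78 ± 0.11 at BLM day 14.

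Degradation and stress-signalling lists were mixed, and their counts stand beside the same shares of all tested genes. Of 15 other degradation genes, 2, 2 and 0 rose and 2, 0 and 0 fell at day 7, 14 and 63 of SiO2. In BLM 1, 2 and 0 rose and 0, 2 and 1 fell at the same days. In every treated group the share of these degradation genes called was below that of all genes called. Of 15 genes for stress sensors and the integrated stress response, 4, 2 and 2 rose and 4, 1 and 5 fell in SiO2. In BLM 5, 3 and 0 of them rose and 3, 5 and 1 fell. The share of these stress genes called was below that of all genes called at SiO2 day 14 and BLM day 63. Ddit4, an inhibitor of mTOR signalling induced by stress, rose by 4.99 ± 0.30 at SiO2 day 7 and 3.24 ± 0.33 at BLM day 14, and Vldlr, a lipoprotein receptor, fell by 1.39 and 1.70. The counts of these lists carry no test.

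Most of the listed genes for collagen, the main cargo, rose in 5 of the 6 treated groups, BLM day 63 being the exception. Of the 8 collagen cargo genes, 6, 7 and 6 rose and 1, 0 and 1 fell at day 7, 14 and 63 of SiO2, and 7, 7 and 2 rose and 0, 1 and 0 fell at the same days of BLM. The 8 collagen cargo genes had a median log2 fold change of 1.92, 1.35 and 0.88 at day 7, 14 and 63 of SiO2 and 1.29, 1.98 and -0.04 at the same days of BLM. Col1a1 had 4012, 4454 and 4669 CPM at SiO2 day 7, 2325, 2643 and 1912 CPM at SiO2 day 14 and 1254, 1226 and 1205 CPM at SiO2 day 63. It had 1349, 2259 and 2142 CPM at BLM day 7, 3956, 3316 and 3414 CPM at BLM day 14 and 505, 606 and 584 CPM at BLM day 63, against 666, 719 and 681 CPM in the untreated libraries. BLM day 63 was below all other groups, untreated included, though its log2 fold change of -0.29 ± 0.13 did not pass, and the remaining treated libraries were above untreated. Its interaction was 1.75 (adjusted p = 3.68e-08). Whether the cargo set the level of the folding genes was not tested.

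Markers of other cells were checked because plasma cells are rich in this machinery. Col1a2, which drives the sorted reporter, had 6669, 5979.8 and 6436 CPM at SiO2 day 7, 4125, 4648 and 3716 CPM at SiO2 day 14 and 3388, 3284 and 3303 CPM at SiO2 day 63. It had 2968, 4035 and 3712 CPM at BLM day 7, 6637, 6335 and 6060.4 CPM at BLM day 14 and 1471, 1728 and 1668 CPM at BLM day 63, against 1469, 1619 and 1639.6 CPM in the untreated libraries. Every treated group lay above untreated except BLM day 63, which overlapped with it. Col1a2 rose by 2.01 ± 0.10, 1.40 ± 0.10 and 1.08 ± 0.10 in SiO2 and by 1.18 ± 0.10 and 2.01 ± 0.10 at day 7 and 14 of BLM, with 0.04 ± 0.10 at BLM day 63, which did not pass. Whether the level of the gated reporter bears on the folding genes was not tested. Ptprc, Epcam, Pecam1 and Cdh5, which mark leukocytes, epithelium and endothelium, reached at most 1.19, 1.21, 0.468 and 0.788 CPM in any library. Ptprc, Epcam and Pecam1 encode CD45, EpCAM and CD31, against which the cells were sorted, so their low levels are no check independent of the gate. Of 13 plasma cell markers 5 were among the symbols. They summed to 46.9 to 60.5 CPM at SiO2 day 7, 17.0 to 19.99 at SiO2 day 14 and 28.9 to 35.6 at SiO2 day 63. The sums were 6.67 to 13.3, 15.5 to 23.3 and 3.78 to 8.32 CPM at day 7, 14 and 63 of BLM, and 3.27 to 6.09 CPM in untreated libraries. At SiO2 day 7 most of this was Sdc1, a proteoglycan that other cells also carry, at a mean of 45.7 CPM at SiO2 day 7, against 1.38 CPM in untreated libraries. The joining chain gene Igj averaged 0.257 CPM at SiO2 day 7 and 6.88 CPM at SiO2 day 63, against 1.16 CPM in untreated libraries, and Mzb1 averaged at most 0.400 CPM in any group.

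Other marker lists differed in level and course. The 7 myeloid markers found summed to 9.11 to 13.5, 18.0 to 32.4 and 19.2 to 23.7 CPM at day 7, 14 and 63 of SiO2 and 14.5 to 23.1, 9.67 to 14.6 and 2.67 to 5.72 CPM at the same days of BLM, against 3.11 to 6.53 CPM in untreated libraries. The 6 lymphocyte markers summed to 30.3 to 72.7, 25.8 to 36.5 and 34.9 to 46.3 CPM at day 7, 14 and 63 of SiO2 and 33.0 to 55.1, 9.40 to 15.9 and 4.003 to 6.47 CPM at the same days of BLM, against 4.92 to 10.8 CPM in untreated libraries. At SiO2 day 7 most of this was Ccl5. The 8 epithelial markers summed to 20.00 to 30.3, 7.73 to 8.99 and 3.99 to 5.52 CPM at day 7, 14 and 63 of SiO2 and 27.7 to 32.2, 6.08 to 7.77 and 7.22 to 10.9 CPM at the same days of BLM, against 7.25 to 12.2 CPM in untreated libraries. The 6 endothelial markers found summed to 8.10 to 13.0, 17.2 to 29.6 and 18.5 to 21.6 CPM at day 7, 14 and 63 of SiO2 and 23.2 to 25.2, 16.4 to 23.8 and 12.7 to 19.9 CPM at the same days of BLM, against 22.4 to 30.9 CPM in untreated libraries. The highest sum of any of these 4 lists in a library was 72.7 CPM. The 8 pericyte and smooth muscle markers summed to 155 to 196, 80.4 to 101 and 114 to 135 CPM at day 7, 14 and 63 of SiO2 and 78.6 to 148, 172 to 216 and 66.5 to 94.1 CPM at the same days of BLM, against 35.2 to 41.2 CPM in untreated libraries. All treated libraries were above untreated ones for this list. The 6 mesothelial markers summed to 126 to 179, 395 to 515 and 222 to 254 CPM at day 7, 14 and 63 of SiO2 and 269 to 375, 385 to 439.9 and 354 to 431 CPM at the same days of BLM, against 515 to 640.0 CPM in untreated libraries. For this list most treated libraries were below untreated ones. The part of these cells in the changes was not tested.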

How the data were processed

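Whole-number counts per gene symbol were deposited for each of the 21 libraries, and per the labels they come from 3′SAGE-seq on an Ion Proton sequencer. Bowtie2 2.2.5 and the mm10 genome are named per the submitters' processing notes. The annotation, counting tool and strand setting are not given in the sources used here, so overlapping or near-identical genes cannot be told apart. Counts were tested in R 4.3.3 with edgeR 4.0.16: one quasi-likelihood fit over 7 groups after filterByExpr and TMM scaling, 14 residual degrees of freedom, and Benjamini-Hochberg adjustment over 11669 genes within each of 14 comparisons. SE is the log2 fold change divided by the square root of F. The coefficient of variation between replicates in the fit was 12.0%. On simulated data for BLM day 7 against untreated (11262 genes), the script recovered 46.0% of 1.5-fold, 90.7% of 2-fold and 100% of 4-fold changes, and 3.49% of its calls were false. The simulation gave every gene the same spread and changed only 50, 75 and 75 well-counted genes at these folds. These rates may therefore differ for low-count genes and for the real data, where more genes changed. Levels are CPM on TMM-scaled totals. A 3′ tag is counted per gene and not per length, so levels are not compared between genes. The depth of 2080636 to 4477283 counts limits precision for genes at a few CPM. No batch is given in the labels.

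The genes, the other lists and the motifs were chosen with earlier results of these data known. Values in every library are given, in each role, for the 2 genes highest in mean CPM and the 2 with the largest called change. From each other list, up to 3 called genes with the smallest p may be named, and Col1a1, Col1a2, Col3a1, Serpinh1, P4hb, Atf4 and Eif2ak3 in any comparison. Dnajc3, Dnajb11, Calr, Pdia4, Spcs2, Kdelr2, Kdelr3 and other listed genes outside the first rule are given by fold change. Alternatives were other scalings (RLE, upper quartile), no filter, a filter of 10 CPM in 3 libraries, DESeq2 1.42.0, limma-voom 3.58.1, a replicate block, fits on only the groups compared, and leaving out each library. Gene coordinates are from GENCODE vM21 (mm10) and promoter sequences from RefSeq (GRCm38.p6).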

Additional observations from a re-analysis of the deposited data

Results flagged for a closer look

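For 12 of the 39 tested genes the change between day 14 and day 63 in SiO2 fibroblasts differed from that in BLM fibroblasts, by edgeR's quasi-likelihood test of the interaction with Benjamini-Hochberg adjustment over all tested genes. The differences, SiO2 minus BLM on the log2 scale, were 1.46 for Pdia5 (adjusted p = 1.01e-05), 1.10 for Fkbp10 (adjusted p = 6.31e-05), 0.98 for Kdelr2 (adjusted p = 0.00131) and 0.96 for Tmed9 (adjusted p = 0.0480). Among channel genes they were 0.83 for Ssr2, 0.75 for Sec61a1 and 0.54 for Sec61b, and among the rest 0.81 for Sec13, 0.54 for Pdia4 and 0.47 for Canx. Differences below 0 were -0.72 for Herpud1 and -0.61 for Sdf2l1. In SiO2, Pdia5 changed by 0.01 ± 0.15 and Herpud1 by -0.19 ± 0.13, and in BLM they changed by -1.44 ± 0.16 and 0.52 ± 0.13. Proliferation genes summed to 37.1 to 51.4 CPM at SiO2 day 63 and 33.3 to 71.0 CPM at SiO2 day 14, and to 18.9 to 25.5 CPM at BLM day 63 and 104 to 213 CPM at BLM day 14. Immediate-early and dissociation genes summed to 29205 to 31724 CPM at SiO2 day 63 and 30487 to 39973 CPM at SiO2 day 14, and to 38209 to 41276 CPM at BLM day 63 and 22330.4 to 27089.7 CPM at BLM day 14. Pericyte and smooth muscle markers summed to 114 to 135 CPM at SiO2 day 63 and 80.4 to 101 CPM at SiO2 day 14, and to 66.5 to 94.1 CPM at BLM day 63 and 172 to 216 CPM at BLM day 14. The part of these lists in the differences was not tested.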

How the results depend on the processing

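Over the 14 comparisons, 196 calls were made for the 39 genes. Of these, 136 held under every alternative and every left-out library, 60 were lost under at least 1, and none changed direction. The calls lost numbered 1 with RLE scaling, 14 with upper quartile scaling, 7 without a filter, 6 with DESeq2, 2 with limma-voom, 8 with only the groups compared in the fit, and 1 of 190 with the stricter filter. The replicate block lost 0 of 196 calls. Replicate numbers give no origin. Same-numbered libraries had deviations from their group means correlated by -0.12 to 0.06 over 63 pairs, none over 0.1. Of the 21 libraries, 5 were closest to their own number. Whether same-numbered libraries share an origin cannot be read from these values, since the labels do not give it.

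The count at SiO2 day 63 against day 14, 0 in edgeR with all libraries, was 1 without a filter, 1 with DESeq2, 1 with limma-voom, 1 with only the groups compared, and 0 to 1 with a library left out. The count for SiO2 against BLM at day 7, 5 with all libraries, was 3 with only the groups compared and 2 to 8 with a library left out. Leaving out a library gave 5 to 10 calls for BLM day 63 against untreated (9 with all libraries), 3 to 7 for BLM day 14 against day 7 (7) and 7 to 12 for the interaction (12). The median log2 fold change of BLM day 14 against day 7 was 0.015 and became -0.00537 with upper quartile scaling, and the cause was not tested.

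Genes at a few CPM, such as Hyou1, Tmed9 and Ddit3, rest on few counts, and Manf could not be tested. Counts do not read splicing of Xbp1, cleavage of Atf6, translation or protein level.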
